A study of Mus musculus with 2 samples.

Results

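Activins are secreted dimers of inhibin beta subunits. The genes described here are the activin subunits Inhbb and Inhba, the follistatin-like genes Fstl1 and Fstl3, and the activin receptors Acvr1b, Acvr2a and Acvr2b. These 7 genes, of 31053 in the deposited count tables, were chosen by name, and all 7 were found by their symbol. Inhbb was already known to differ between these libraries when the list was drawn up, so its difference is given as a description. The cells came from lungs of wild-type (WT) C57BL/6 mice and were sorted for PECAM1, a surface protein of endothelial cells (ECs), 6 h after a tail vein injection. The control library followed an injection of phosphate-buffered saline (PBS). The metastatic library followed 200000 B16-F10 cells, a mouse melanoma line. Each library pooled the cells of 2 mice and each group held 1 library, so no test between the groups was possible and no p-value is given. For tail vein injections the study's methods give male mice 8 to 10 weeks old.

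Activin B, a dimer of the beta B subunit encoded by Inhbb, and activin A, a dimer of the beta A subunit encoded by Inhba, bind the type II receptors ACVR2A and ACVR2B. These recruit and phosphorylate the type I receptor ACVR1B, also called ALK4, which in turn phosphorylates the transcription factors SMAD2 and SMAD3. Follistatin and FSTL3 bind activins outside the cell and keep them from their receptors, while FSTL1 is a secreted glycoprotein that carries a follistatin-like domain. In the lung, activin A is known from studies of inflammation and fibrosis.

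A barcode counted as a cell when it held between 1000 and 5000 genes and less than 20% of its unique molecular identifiers (UMIs, 1 per captured RNA molecule) were mitochondrial, which gave 7134 control and 6466 metastatic cells. ECs were classed by their markers. Aerocyte capillary cells (aCap) carried at least 2 of Ednrb, Fibin and Tbx2, vein cells at least 2 of Slc6a2, Car8 and Bst1, and artery cells at least 2 of Gja5, Bmx and Fbln5. General capillary cells (gCap) carried at least 2 of Gpihbp1, Aplnr, Kit and Lpl and belonged to no other class. This gave 5020 control and 4519 metastatic gCap cells, 1364 and 1086 aCap cells, 247 and 304 vein cells, and 63 and 59 artery cells. A further 273 control and 344 metastatic cells carried at least 2 EC markers (of Cdh5, Pecam1, Cldn5, Egfl7 and Tie1) but no class, and are called unclassed endothelial.

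Genes that the class rule did not use fitted the labels for aCap and vein in both libraries. Car4, Apln and Chst1 were highest in aCap, and Nr2f2, Vwf and Vegfc in vein. The artery label was borne out by Efnb2 (1004 and 909 counts per 1000000 UMIs of the class, CPM, in artery against 488 and 483 CPM in gCap), while Gja4 and Hey1 in artery lay close to their gCap levels. Hmcn1 and Cd93 parted gCap from aCap and artery, not clearly from vein. In the metastatic artery class, lymphatic markers summed to 1480 CPM, with 3.39% of its 59 cells carrying at least 2 of them, against 2.03 CPM in the control artery class. Median UMIs per cell were 5950.5 and 6275 in gCap. In all, 16 barcodes were called as cells in both libraries, where 6.79 would be shared by unrelated draws.

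The promoters of both ligand genes are shown because Inhbb carried the difference between the libraries described here, while Inhba was almost undetected. The sequences are from RefSeq on GRCm38.p6, each from 250 bases before to 50 bases after the annotated start, read 5′ to 3′ on the strand of the gene. Capitals mark matches, on either strand, to a GC box (GGGCGG) or a TATA box (TATAAA).
Inhbb, chr1:119422199-119422498, minus strand: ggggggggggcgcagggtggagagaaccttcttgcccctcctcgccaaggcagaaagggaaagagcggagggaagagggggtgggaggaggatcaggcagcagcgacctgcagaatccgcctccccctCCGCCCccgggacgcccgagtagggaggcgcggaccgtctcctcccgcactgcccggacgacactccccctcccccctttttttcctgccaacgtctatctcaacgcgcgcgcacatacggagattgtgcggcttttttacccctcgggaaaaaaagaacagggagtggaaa
Inhba, chr13:16011601-16011900, plus strand: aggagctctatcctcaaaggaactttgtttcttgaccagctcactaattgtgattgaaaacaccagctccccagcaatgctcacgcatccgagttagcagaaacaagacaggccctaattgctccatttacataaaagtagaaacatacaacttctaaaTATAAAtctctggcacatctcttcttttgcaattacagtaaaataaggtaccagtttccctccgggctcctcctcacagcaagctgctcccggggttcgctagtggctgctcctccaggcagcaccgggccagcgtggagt
The Inhbb promoter had a GC content of 64.3% and held 1 GC box, starting at -122 from the annotated start, and no TATAAA. The Inhba promoter had a GC content of 47.7%, no GC box and 1 TATAAA, starting at -91. Over 32851 RefSeq promoters of the same length, the median GC content was 52.7%, 35.7% held a GC box and 13.6% held TATAAA. The receptors and Fstl1 held between 2 and 4 GC boxes, and Fstl3 held 4 GC boxes and 1 TATAAA. The STAT letters TTCNNNGAA (8.30% of all promoters), the SMAD box GTCTAGAC (0.213%) and the CREB letters TGACG (20.8%), each searched on both strands, had no match in the promoters of any of the 7 genes. The shorter SMAD letters CAGAC (49.6%) were found in the promoters of Fstl3, Acvr2a and Acvr2b. A match is a description of the letters and not of a bound site. In the GENCODE M21 annotation of GRCm38, the assembly also named mm10, Inhbb covers positions 119415465 to 119422248 of chromosome 1 on the minus strand, and no other annotated gene overlaps it. Inhba covers 16011851 to 16031621 of chromosome 13 on the plus strand, where 2 genes, B230303A05Rik and Gm48444, overlap it on the other strand.

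Inhbb, the subunit of activin B, was higher in the metastatic library in gCap, aCap and unclassed endothelial cells. In gCap it was counted at 167 UMIs in the control library, or 5.20 CPM (exact Poisson 95% interval 4.44 to 6.05), and at 981 UMIs in the metastatic library, or 32.4 CPM (30.4 to 34.5). The log2 ratio of metastatic over control CPM was 2.64 (exact conditional binomial 95% interval 2.40 to 2.88), a 6.23-fold difference. All intervals cover counting error only, and not the spread between cells or between mice. Thinning every gCap cell to 2000 UMIs lowered the log2 ratio to 2.32 (1.90 to 2.76).

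In aCap, cells known for their large flat extensions over the alveoli, 27 control UMIs of Inhbb (2.38 CPM) stood against 76 metastatic UMIs (8.10 CPM), with a log2 ratio of 1.76 (1.11 to 2.45). In vein cells 1 control UMI stood against 11 metastatic UMIs in 7 cells, a ratio of 9.07 whose counting interval ran from 1.32 to 390. Artery cells held 8 and 10 Inhbb UMIs in 5 and 4 cells, or 16.2 and 20.6 CPM. The interval of their log2 ratio of 0.34 (-1.15 to 1.89) held 0. The libraries thus differed beyond counting error in gCap, aCap and, barely, vein, and not in artery, the class with the fewest cells and with lymphatic markers on its metastatic side.

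**Figure D1:**
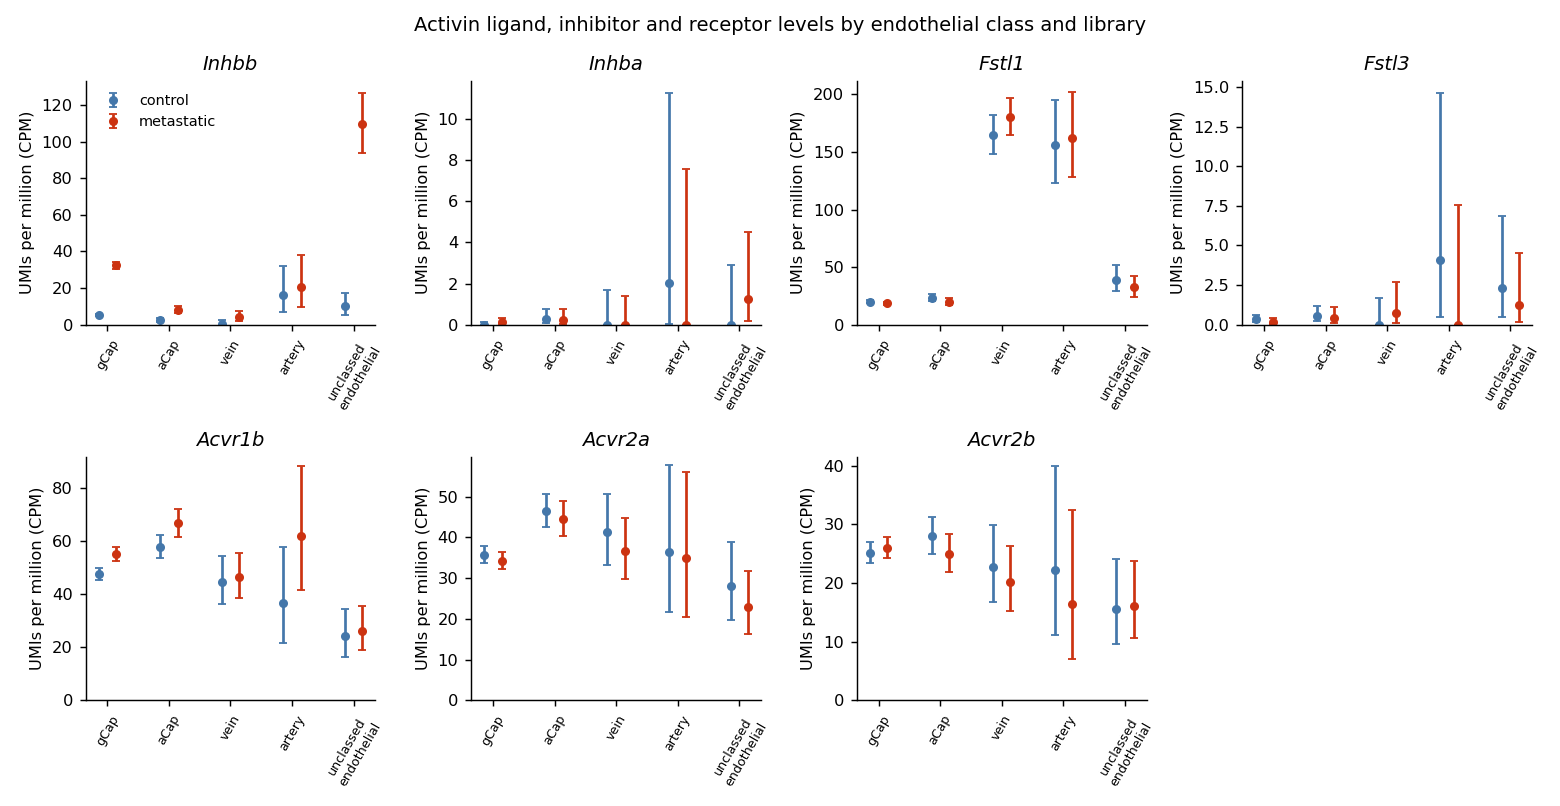
Levels of the 7 genes in counts per 1000000 UMIs (CPM, vertical axes, each from 0) in 4 endothelial classes and in unclassed endothelial cells, with control in blue and metastatic in red; points are sums over the cells of 1 library and bars are exact Poisson 95% intervals. Inhbb stood at 5.20 and 32.4 CPM in gCap, Fstl1 was highest in vein and artery of both libraries, and Inhba and Fstl3 were near 0 in gCap and aCap.

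The classes were next ordered by their Inhbb level in each library, a difference in order that was not itself tested. In control lungs artery (16.2 CPM) was above gCap (log2 ratio 1.64, 0.41 to 2.65), gCap was above aCap (1.13, 0.53 to 1.77), and aCap and vein were not parted (2.39, -0.21 to 7.75). In metastatic lungs gCap (32.4 CPM) and artery (20.6 CPM) were not parted (0.66, -0.23 to 1.72), artery was above aCap (1.34, 0.23 to 2.30), and aCap was above vein (0.98, 0.06 to 2.04). The level in unclassed endothelial cells of the metastatic library was 109 CPM (93.9 to 127), 3.38-fold that of gCap in the same library (2.86 to 3.97), against 10.1 CPM (5.40 to 17.3) in the control library. These were 176 UMIs in 37 positive cells and 13 UMIs in 3 positive cells, and their log2 ratio was 3.43 (2.62 to 4.37). Unclassed endothelial cells of the control and metastatic library also carried markers of other cell types, whose part in the Inhbb level was not tested. These summed to 10284 and 12095 CPM for epithelial, 8179 and 5412 CPM for erythroid and 1964 and 1853 CPM for platelet markers. Lymphatic markers were at 1062 and 1148 CPM and neutrophil markers at 432 and 1459 CPM. At least 2 epithelial markers were found in 11.7% and 10.2% of these cells.

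Of all Inhbb UMIs in called cells, 77.3% of 216 in the control and 78.2% of 1254 in the metastatic library lay in gCap. No Inhbb UMI was found in lymphoid, monocyte or macrophage, fibroblast or mural, epithelial or platelet marker cells of either library. These groups were small, the largest with 37 and 36 lymphoid cells, so a low level there was not detectable at this depth.

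Among the 11220 genes with at least 100 UMIs in gCap, 3.38% were over 1.5-fold higher and 1.8% over 1.5-fold lower in the metastatic library. Of the 7 members, 5 reached 100 UMIs in gCap, where 1, Inhbb, was past 1.5-fold higher and 0 were past it lower. Inhbb ranked 7 from the highest log2 ratio among the 11220 genes, at the 99.9 percentile. Since the list was drawn up with this difference known, the count is a description. The median log2 ratio was 0.05 over the 5 members and 0.02 over all 11220 genes. In aCap, where 2.64% of 9504 genes were past the fold higher and 1.26% lower, Inhbb reached 100 UMIs only through its 76 metastatic UMIs, so no count of members is read there. The other 4 members that reached it lay within the fold. In vein 0 of 4 members were past the fold, beside 3.31% of genes higher and 1.9% lower, and in artery 0 of 1 member was, beside 4.6% and 3.72%.

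**Figure D2:**
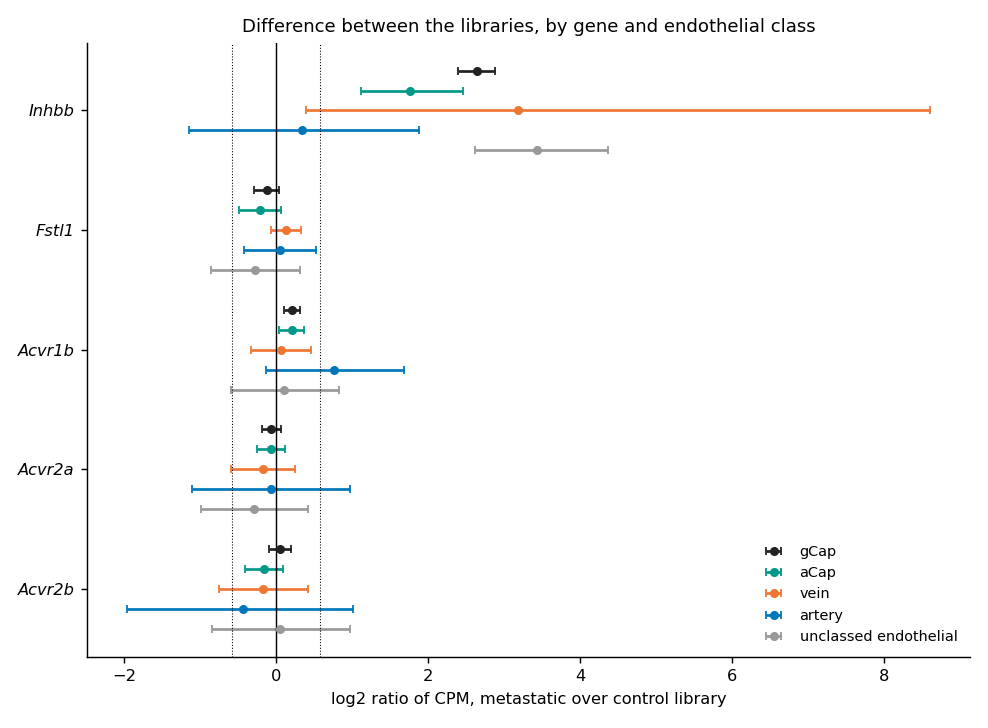
Log2 ratio of CPM, metastatic over control library (horizontal axis), for 5 members and the classes where a member had at least 10 UMIs over both libraries; points are ratios of class sums, bars are exact conditional binomial 95% intervals, and dotted lines mark 1.5-fold. The Inhbb points of gCap (2.64), aCap (1.76) and unclassed endothelial cells (3.43) lie to the right of the dotted line with their whole intervals, and the receptor and Fstl1 points of gCap and aCap lie between the dotted lines.

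Inhbb was found in few cells, and in both libraries a small set of cells held much of it. A UMI of Inhbb was found in 116 of 5020 control gCap cells (2.31%) and in 338 of 4519 metastatic gCap cells (7.48%). Thinned to 2000 UMIs per cell, with 73 control and 58 metastatic cells too shallow and left out, the shares were 0.889% (Clopper-Pearson 95% interval 0.647 to 1.19) and 3.54% (3.02 to 4.13). Lymphoid cells, which served as the background for free RNA, had 0 positive cells of 37 and 0 of 35 at that depth, which allows shares of up to 8.11% and 8.57% by the floor of 3 cells and 9.49% and 10.003% by the exact interval, so this background bounds the shares only loosely. Their median depths were 4540 and 5015.5 UMIs. Barcodes with 11 to 50 UMIs, which hold few or no cells, had 6 control and 7 metastatic Inhbb UMIs. These were 9.14 CPM (3.35 to 19.9) and 9.61 CPM (3.86 to 19.8). The control gCap level of 5.20 CPM lay within the first interval, and the metastatic gCap level of 32.4 CPM lay above the second. Most of these barcodes were found in both libraries, so this background is not particular to either. Only 5193 of 25507 control and 3436 of 26993 metastatic barcodes were absent from the other library. They held 1 and 0 Inhbb UMIs, with upper limits of 72.7 and 70.3 CPM, above the gCap levels of both libraries. The part of free RNA in the gCap levels was not tested.

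Positive gCap cells held a mean of 1.44 Inhbb UMIs in the control and 2.90 in the metastatic library, and the highest cell held 11 and 25. Cells with a single Inhbb UMI numbered 88 and 186, those with 2 numbered 20 and 55, and those with 5 or more numbered 2 and 56. The 8 control cells with 3 or more UMIs (0.159% of gCap) held 23.4% of the Inhbb UMIs of their class, while the 97 such cells of the metastatic library (2.15%) held 69.8%. A fixed cut of 3 UMIs is passed more easily where the level is higher. By rank, the 1% of gCap cells with the most Inhbb, 50 control and 45 metastatic cells, held 60.5% and 49.6% of its UMIs. The variance of the UMIs per cell over their mean was 2.44 in the control and 7.41 in the metastatic library, where 1 is the value of a Poisson count. The counting intervals of Inhbb levels and ratios leave this spread out and are too narrow for it.

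**Figure D3:**
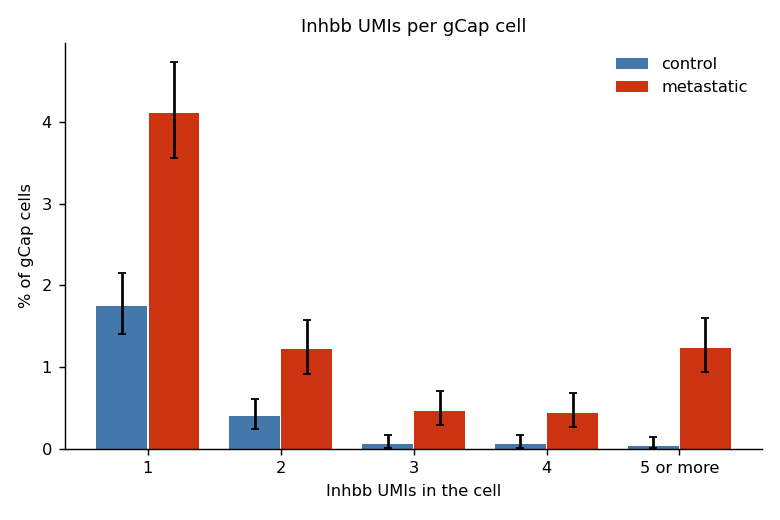
Percent of gCap cells (vertical axis) by the number of Inhbb UMIs in the cell (horizontal axis), with control in blue and metastatic in red; bars are shares of 5020 and 4519 cells and error bars are Clopper-Pearson 95% intervals. The share was higher in the metastatic library at each number, and cells with 5 or more UMIs numbered 2 in the control and 56 in the metastatic library.

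Inhbb detection in the metastatic library was lower in cells with more capillary markers. Over gCap and unclassed endothelial cells thinned to 2000 UMIs, so that markers and Inhbb were read at 1 depth, an Inhbb UMI was found in 8.29% (4.81 to 13.1) of 193 metastatic cells with 0 of the 4 gCap markers and in 6.50% (4.80 to 8.57) of 708 cells with 1. The share was 3.69% (2.86 to 4.68) of 1762 cells with 2 markers, 3.00% (2.29 to 3.86) of 1932 cells with 3 and 1.12% of 178 cells with all 4, where 2 cells were positive. The intervals of the cells with 0 or 1 marker lay above those of the cells with 2 or 3. In the control library the shares at 0 to 4 markers were 0%, 0.714%, 1.20%, 0.719% and 0.508%, with intervals that overlapped. Without thinning, Inhbb stood at 77.2, 120, 58.2, 33.4 and 15.8 CPM in metastatic cells with 0 to 4 markers. The cells with fewer markers were also shallower, with medians of 4053 UMIs at 0 markers, 3351 at 1 and 7273.5 at 4.

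**Figure D4:**
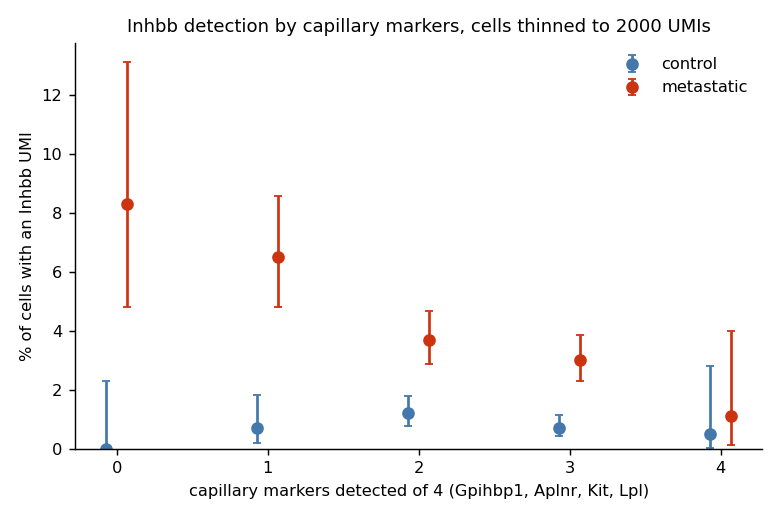
Percent of cells with an Inhbb UMI (vertical axis) by the number of the gCap markers Gpihbp1, Aplnr, Kit and Lpl detected (horizontal axis), over gCap and unclassed endothelial cells thinned to 2000 UMIs, with control in blue and metastatic in red and Clopper-Pearson 95% intervals as bars. Metastatic shares went from 8.29% at 0 markers to 1.12% at 4, and control shares lay between 0% and 1.20%.

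Part of the aCap level of Inhbb lay in aCap cells that also carried gCap markers. Metastatic aCap cells with 2 or more gCap markers held 64 Inhbb UMIs (11.2 CPM, 8.65 to 14.3) and those with fewer held 12 (3.26 CPM, 1.68 to 5.69), while the control aCap cells held 27 (3.94 CPM) and 0. In aCap cells with all 3 aCap markers the counts were 7 control UMIs (0.834 CPM) and 42 metastatic UMIs (6.16 CPM). Doublets, droplets that captured more than 1 cell, were not removed here, and their part in these values was not tested.

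Metastatic gCap cells with an Inhbb UMI were compared with those without one, 338 against 4181 cells with medians of 7244 and 6193 UMIs. Of 4636 genes with at least 100 UMIs in both sets, 7.79% were over 1.5-fold higher and 3.11% over 1.5-fold lower in the positive cells. The positive cells held 2768335 UMIs and the negative cells 27522079, so a gene high in positive cells reached this minimum more easily. These shares and the ranking below are therefore a description. Described here are 9 of the 10 genes with the highest ratios, Tubb6, Mt2, Lcn2, Mt1, Gja1, Noct, Tuba1c, Pdgfa and AC167229.1. The control library, with 116 positive and 4904 negative gCap cells, did not choose them.

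The log2 ratio of the tubulin Tubb6 was 3.88 (3.58 to 4.17) in metastatic cells and 0.26 (-2.04 to 1.86) in control cells. The metallothioneins Mt2 and Mt1, which bind zinc, were at 3.84 and 3.34 in metastatic cells and at -0.83 (-3.89 to 1.05) and -0.54 (-1.35 to 0.17) in control cells. The iron-siderophore binding protein Lcn2 (3.51) and the growth factor Pdgfa (2.92) likewise had control intervals that held 0, at 0.10 (-1.36 to 1.25) and 0.03 (-0.67 to 0.65). So 5 of these 9 genes were not parted between positive and negative control cells.

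The other 4 were higher in Inhbb-positive cells of both libraries. The log2 ratio of Gja1, the gap junction protein connexin 43, was 3.21 (2.81 to 3.61) in metastatic and 2.03 (1.32 to 2.67) in control cells. Noct, the NADP(H) phosphatase nocturnin, was at 3.06 and 1.29 (0.04 to 2.32), and the tubulin Tuba1c at 3.03 and 1.55 (0.30 to 2.59), with 8 UMIs each in the positive control cells. The long noncoding RNA AC167229.1 was at 2.82 (2.56 to 3.09) and 2.59 (2.21 to 2.96).

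Positive control cells mostly held 1 Inhbb UMI, so the comparison was repeated with positive cells of 1 or 2 UMIs, a choice made after seeing the data. It left 108 control and 241 metastatic positive cells. In metastatic cells, most of which had already chosen the 9 genes, their log2 ratios ran from 1.34 for Mt2 to 3.08 for Lcn2, which is a description. In control cells Gja1 (1.83, 1.04 to 2.53), Tuba1c (1.45, 0.10 to 2.55) and AC167229.1 (2.04, 1.56 to 2.48) kept intervals above 0, and Noct did not (0.70, -0.95 to 1.97). Markers of other cell types in Inhbb-positive and Inhbb-negative metastatic gCap cells summed to 245 and 275 CPM for platelets, 5.42 and 34.5 CPM for neutrophils, and 2889 and 761 CPM for epithelium. The epithelial sum was mostly Sftpc, at 2847 and 718 CPM, and without the 2 positive and 4 negative cells that held 1000 or more Sftpc UMIs this gene was at 67.9 and 112 CPM. Erythroid markers summed to 295 and 877 CPM. The doublet score was above its limit in 6.80% of positive and 3.49% of negative metastatic cells and in 9.48% and 4.22% of control cells, and the part of doublets in these ratios was not tested.

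**Figure D5:**
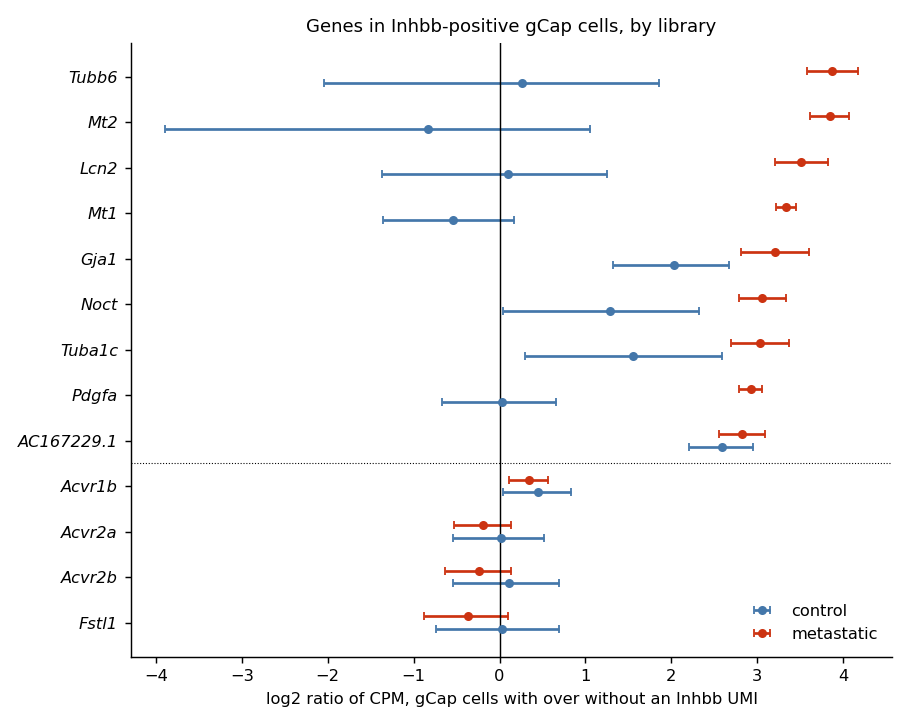
Log2 ratio of CPM between gCap cells with and without an Inhbb UMI (horizontal axis) for 9 of the 10 genes highest in metastatic positive cells, above the dotted line, and for 4 members below it, with control in blue, metastatic in red and exact conditional binomial 95% intervals as bars. The 9 genes were chosen on the red values, and 4 of them, Gja1, Noct, Tuba1c and AC167229.1, have blue intervals above 0.

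Among the other members, the interval left out 0 for Acvr1b alone. The type I receptor Acvr1b was at 67.9 and 53.6 CPM in metastatic cells (log2 ratio 0.34, 0.12 to 0.56) and at 64.2 and 47.0 CPM in control cells (0.45, 0.04 to 0.83). Among metastatic positive cells of 1 or 2 UMIs its interval held 0 (0.27, -0.01 to 0.53). The intervals of Acvr2a (-0.19, -0.53 to 0.14), Acvr2b (-0.24, -0.64 to 0.14) and Fstl1 (-0.37, -0.87 to 0.09) in metastatic cells held 0, as did those in control cells. Inhba and Fstl3 had too few UMIs in these cells for a ratio.

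The genes whose level was most like that of Inhbb over the 8 sums of 4 classes and 2 libraries, by Pearson r of log2(CPM + 1) among 11729 genes, were Calcrl (r = 0.957), Ypel3 (0.953), Abcb1b (0.945), Disp2 (0.941) and Noct (0.938), and 21 genes had r of at least 0.9. Calcrl, a receptor for adrenomedullin and calcitonin gene-related peptide, stood at 1901 and 2366 CPM in control and metastatic gCap and at 1416 and 1634 CPM in vein. Noct stood at 3.83 and 14.7 CPM in gCap and at 3.71 and 5.22 CPM in aCap. The 8 sums come from only 2 libraries and share their depth and class sizes, so these values are a description. The Inhbb sums of vein rest on 1 and 11 UMIs and those of artery on 8 and 10. The control vein level of 0.453 CPM lay under the 1.36 CPM that 3 UMIs would give.

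Inhba, the subunit of activin A, was almost undetected. In the control library 4 cells held 1 UMI each, 3 of them aCap and 1 artery, and none was gCap. In the metastatic library 9 cells held 17 UMIs. Of these, 4 gCap cells held 1 each, 1 aCap cell and 1 unclassed endothelial cell held 2 each, and 1 cell with monocyte or macrophage markers held 5. Under 10 UMIs in each class left no ratio to give, and the upper limits of the gCap level were 0.115 CPM for control and 0.338 CPM for metastatic lungs. No cell with an Inhbb UMI in gCap carried an Inhba UMI in either library, but too few gCap cells held Inhba to judge joint detection. Barcodes with 11 to 50 UMIs, which hold few or no cells, had Inhba at 22.8 and 16.5 CPM, from 15 and 12 UMIs.

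Fstl1, which encodes the secreted follistatin-like 1, was higher in the large vessel classes than in capillaries. Between the libraries its class sums did not differ beyond counting error at full depth, while at equal depth it was lower in metastatic gCap and aCap. It was at 19.97 CPM (18.5 to 21.6) in control and 18.3 CPM (16.8 to 19.9) in metastatic gCap, a log2 ratio of -0.12 (-0.29 to 0.04). In aCap it was at 23.2 and 20.03 CPM (-0.21, -0.49 to 0.06). Vein cells had 165 CPM (148 to 182) and 181 CPM (165 to 197), 8.24-fold and 9.85-fold the gCap level of the same library. Artery cells had 156 CPM (123 to 195) and 162 CPM (129 to 202), 7.82-fold and 8.86-fold the gCap level.

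Vein and artery were not parted from each other in either library (log2 ratios 0.08, -0.28 to 0.45, and 0.15, -0.19 to 0.51), and each was above aCap. A UMI of Fstl1 was found in 68.8% of control and 66.8% of metastatic vein cells, against 10.5% and 9.96% of gCap cells. Fibroblasts, known for high Fstl1, were few, with 3 and 7 fibroblast or mural marker cells at 347 and 143 CPM. Summed fibroblast and mural markers were at 105 and 39.1 CPM in artery, 7.71 and 49.7 CPM in vein, and 17.3 and 26.4 CPM in gCap, and their part in the Fstl1 level was not tested. Barcodes with 11 to 50 UMIs held Fstl1 at 168 and 150 CPM. Thinned to 2000 UMIs per cell, the log2 ratio of Fstl1 was -0.34 (-0.64 to -0.03) in gCap and -0.89 (-1.54 to -0.28) in aCap, from 75 and 32 UMIs. In vein and artery the intervals of the log2 ratio at that depth held 0. The random draw was not repeated at that depth, and these intervals do not cover its spread. The share of cells with an Fstl1 UMI at 2000 UMIs was 4.10% (3.57 to 4.69) in control and 3.23% (2.73 to 3.79) in metastatic gCap. In aCap it was 5.10% (3.99 to 6.41) and 2.98% (2.05 to 4.18). Thinned to 4000 UMIs, the shares were 7.02% (6.27 to 7.83) and 6.23% (5.49 to 7.04) in gCap. In aCap they were 8.61% (7.11 to 10.3) and 6.85% (5.36 to 8.60). The intervals of the libraries overlapped in both classes at both depths.

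Fstl3, which encodes a soluble activin-binding protein, was close to the detection limit in ECs. It was counted at 11 UMIs in control and 5 UMIs in metastatic gCap, or 0.343 and 0.165 CPM, with a log2 ratio whose interval ran from -2.93 to 0.59. In aCap 6 and 4 UMIs were counted, in vein 0 and 2, and in artery 2 and 0. Barcodes with 11 to 50 UMIs had Fstl3 at 16.8 and 19.2 CPM, from 11 and 14 UMIs. The part of free RNA in the EC counts was not tested. Prss57 overlaps Fstl3 on the other strand of chromosome 10.

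Acvr1b, the type I receptor of activins, was detected in every endothelial class and was slightly higher in metastatic gCap. Control gCap had 47.5 CPM (45.1 to 49.9) and metastatic gCap 54.9 CPM (52.3 to 57.6), so that the log2 ratio was 0.21 (0.11 to 0.31). In aCap it was at 57.7 CPM (53.4 to 62.3) and 66.6 CPM (61.5 to 72.0), also 0.21 (0.05 to 0.37), but thinned to 2000 UMIs the aCap interval held 0 (-0.34 to 0.34), while that of gCap did not (0.24, 0.05 to 0.43). The size, 1.16-fold and 1.15-fold, was within the range of genes in general, since Acvr1b stood at the 82.3 percentile of the log2 ratios of gCap. Vein cells had 44.4 and 46.3 CPM (0.06, -0.33 to 0.46), and artery cells held 18 and 30 UMIs (0.76, -0.13 to 1.69).

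Acvr2a, a type II receptor, was at 35.7 CPM (33.7 to 37.8) in control and 34.2 CPM (32.1 to 36.3) in metastatic gCap (log2 ratio -0.06, -0.19 to 0.06). Its aCap levels were 46.5 and 44.4 CPM (-0.07, -0.26 to 0.12), its vein levels 41.2 and 36.6 CPM, and its artery levels 36.5 and 35.0 CPM. Acvr2b, the other type II receptor, was at 25.1 CPM (23.4 to 26.9) and 26.0 CPM (24.3 to 27.9) in gCap (0.05, -0.09 to 0.19) and at 28.0 and 25.0 CPM in aCap (-0.16, -0.41 to 0.09). In gCap, a difference of 1.5-fold lay outside the intervals of both type II receptors.

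Class differences of the receptors were small beside those of Inhbb and Fstl1. Acvr1b was 1.22-fold (1.11 to 1.33) and 1.21-fold (1.10 to 1.33) higher in aCap than in gCap of the control and metastatic library, and Acvr2a was 1.30-fold higher in both (1.17 to 1.45 and 1.16 to 1.46). For Acvr2b the aCap to gCap ratio was 1.11 and 0.961, with intervals that held 1. Unclassed endothelial cells had lower receptor levels than gCap, with Acvr1b at 24.2 and 26.1 CPM and Acvr2b at 15.6 and 16.2 CPM. Acvr2a in these cells was at 28.1 and 23.0 CPM, and only its metastatic level was parted from gCap.

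Joint detection of both receptor types in a cell was rare at this depth. Thinned to 2000 UMIs, a type II receptor was found in 11.04% of control and 10.6% of metastatic gCap cells, and Acvr1b together with a type II receptor in 0.910% (0.664 to 1.22) and 1.28% (0.969 to 1.65). The product of the separate shares was 0.944% and 1.06%, within these intervals. Thinned to 4000 UMIs the joint shares were 4.08% (3.51 to 4.72) and 4.44% (3.81 to 5.14), beside products of 3.48%, just under the control interval, and 4.18%, within the metastatic one.

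Further genes of the pathway were taken from 6 lists, of which 42 genes are described here and 28 of these reached 100 UMIs in gCap. The median log2 ratio of the 28 was 0.06, and 1 of them was over 1.5-fold lower in the metastatic library, beside 1.8% of all genes. It was Tgfbi, an extracellular matrix protein induced by TGF-beta, at 9.002 and 5.22 CPM (-0.79, -1.08 to -0.50).

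Of the known targets 10 are described here, all with 100 UMIs, and 9 of them lay within 1.5-fold in gCap. Smad7, an inhibitory SMAD, was at 494 and 515 CPM (0.06, 0.03 to 0.09), the SMAD repressor Skil at 118 and 139 CPM (0.23) and the AP-1 gene Junb at 1648 and 1789 CPM (0.12). The matricellular gene Cyr61 was at 63.5 and 88.4 CPM (0.48, 0.39 to 0.56). Smad7, Skil, Bambi and Tgif1 stood on a second list too.

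Of 7 other subunits, inhibitors and coreceptors, 2 reached 100 UMIs in gCap and both were within 1.5-fold. The decoy receptor Bambi was at 34.3 and 29.0 CPM (-0.24, -0.37 to -0.11), and the coreceptor Tgfbr3, also named betaglycan, at 83.0 and 69.9 CPM (-0.25, -0.33 to -0.17). Follistatin itself (Fst) was counted at 40 and 41 UMIs and the coreceptor Tdgf1, also named Cripto, at 30 and 19 UMIs. Of 5 other ligands of these receptors none reached 100 UMIs, and the most abundant, Gdf11, was counted at 26 and 22 UMIs.

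All 3 convertases with 100 UMIs, of 4 on the list, were within 1.5-fold. Furin, a protease that cleaves activin precursors, was at 73.2 and 84.2 CPM (0.20, 0.12 to 0.28). Of 7 other receptors of the family 6 were measured at 100 UMIs and all 6 were within 1.5-fold, among them the BMP type II receptor Bmpr2 (2093 and 2015 CPM, -0.05) and endoglin (Eng, 692 and 913 CPM, 0.40). All 11 SMADs and SMAD regulators with 100 UMIs, of 13, were within 1.5-fold. The inhibitory Smad6 was at 266 and 295 CPM (0.15, 0.11 to 0.19). Smad2 and Smad3, named after their values were seen because activin receptors phosphorylate them, were at 33.5 and 29.6 CPM (-0.18, -0.31 to -0.05) and at 16 and 19 UMIs.

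Between metastatic gCap cells with and without an Inhbb UMI, 19 genes described here from these lists had 100 UMIs in both sets. A gene that is high in the smaller, positive set reaches this minimum more easily, so the numbers past the fold are not read against those of all genes. Past 1.5-fold higher in the positive than in the negative metastatic cells were Ctgf (1.44, 1.14 to 1.74), Bhlhe40 (1.36, 1.09 to 1.63), Furin (0.85, 0.69 to 1.01) and Cyr61 (0.82, 0.66 to 0.97). Past it lower was Tgfbr3 (-0.64, -0.91 to -0.38). Of the same 4636 genes, 2.29% were past the fold higher and 2.61% lower between positive and negative control cells. Among the 19, Ctgf (0.65, 0.09 to 1.16) and Bhlhe40 (0.85, 0.33 to 1.32) were past it higher in control cells too, and Tgfbr3 (-1.10, -1.62 to -0.62) and Zfyve9 (-0.77, -1.35 to -0.26) were lower. Furin had a control log2 ratio of -0.45 (-0.89 to -0.04), opposite in sign to the metastatic one, and the interval of Cyr61 held 0. Smad7 was lower in Inhbb-positive cells of both libraries, at -0.38 (-0.47 to -0.29) and -0.25 (-0.40 to -0.10). Over all gCap cells, Ctgf was lower in the metastatic than in the control library (log2 ratio -0.32, -0.48 to -0.16). In aCap its ratio between the libraries was -0.97 (-1.24 to -0.70). For Bhlhe40 in gCap that interval held 0 (-0.03, -0.19 to 0.12).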

How the data were processed

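Droplet libraries (10x, 3′) of PECAM1-sorted lung cells were made by the authors, who aligned reads to mm10 and counted UMIs with Cell Ranger (3.1.0 per the file headers; the study names an earlier version). The deposited values are raw UMI counts for all barcodes, with 67929614 counts in the control and 64733724 in the metastatic library. Barcodes were filtered and classed here by markers, and counts were summed per class and library and divided by the class total (CPM) in Python 3.11.15 with scipy 1.17.1, pandas 2.3.3 and numpy 2.4.6. Levels carry exact Poisson, ratios exact conditional binomial and shares Clopper-Pearson 95% intervals. Class sums were compared where a gene had 100 UMIs over both sides, with 1.5-fold as the limit and no test, since each group was 1 library. Cells were thinned without replacement. Inhbb was left out of the totals when cells with and without it were compared. Doublets were scored (5.71% and 5.17% of cells marked) and kept, and leaving them out was an alternative, as was TMM scaling (edgeR 4.0.16). The ratio intervals were tested on simulated Poisson counts, which lack the spread between cells, and the thinning on control cells. The other steps were not tested in this way.

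Named were the members, up to 4 genes a list with the most UMIs or past 1.5-fold, the 5 genes most like Inhbb, and the 10 highest in Inhbb-positive cells. A gene of these lists and of these 10 is not reported here, and counts over the lists leave it out. Members and lists were chosen with earlier results of these data known.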

Additional observations from a re-analysis of the deposited data

How the results depend on the processing

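No paired analysis was possible because each group was 1 library. Over 9 alternatives, the log2 ratio in gCap ranged from 2.32 to 2.75 for Inhbb, from -0.34 to -0.05 for Fstl1, from -1.99 to -0.60 for Fstl3, from 0.19 to 0.26 for Acvr1b, from -0.17 to 0.02 for Acvr2a and from -0.02 to 0.09 for Acvr2b. All values stayed inside the counting interval of the reported ratio except under thinning to 2000 UMIs, which gave 2.32 for Inhbb and -0.34 for Fstl1; the cause was not tested. Thinning to 2000 UMIs also took the interval of Fstl1 to below 0 in gCap and aCap. It took that of Acvr1b in aCap to both sides of 0, as given with those genes. Acvr2a and Acvr2b changed sign around 0. Adding unclassed endothelial cells and thinning classes other than gCap were chosen after seeing the data. Genes over 1.5-fold higher numbered 241 after thinning, where 9350 genes reached 100 UMIs, and 856 with a minimum of 20 UMIs, which also gave 574 lower, beside 379 higher and 202 lower as reported. The shares of gCap cells with an Inhbb UMI were 2.31% and 7.48% without thinning and 1.46% and 5.61% at 4000 UMIs. Subtraction of free RNA was not run to a value, since its estimated share was 271% and 167% of gCap UMIs, and Inhba had too few UMIs for a ratio. Counting intervals leave out the spread between cells and between mice, and a low level in the small non-endothelial groups was not detectable.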

Other observations

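The genes lowest in metastatic gCap cells with an Inhbb UMI, picked on those values, were also lower in positive cells of the control library, with intervals below 0 for all 10. Sema3c, a secreted semaphorin, stood at 486 CPM in positive and 1212 CPM in negative metastatic cells (log2 ratio -1.32) and at 460 and 1167 CPM in control cells (-1.34). The taurine transporter Slc6a6 had log2 ratios of -1.24 and -1.48, the sodium channel Scn7a -1.19 and -0.85, and the prostaglandin synthase Ptgs1 -1.20 and -0.55. The haemoglobin gene Hbb-bs, a marker of red cells, had log2 ratios of -1.60 and -2.29.

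Of the 4 markers that define gCap, Aplnr, the apelin receptor, and Kit, a receptor tyrosine kinase, had lower levels in Inhbb-positive cells, with log2 ratios of -0.32 and -0.15 in metastatic and -0.82 and -0.37 in control cells. Lpl, lipoprotein lipase, was higher in positive cells, at 0.24 and 0.45. Gpihbp1, which binds this lipase, was at -0.15 in metastatic cells and at 0.06 (-0.01 to 0.14) in control cells.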
